A study of Mus musculus with 2 samples.

Results

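Arginine metabolism was followed through 6 genes in immune cells of B16 melanoma tumours, sequenced as single cells. The genes were taken by symbol from the deposited gene list, where each of the 6 symbols matched 1 row of 31053: the transporter Slc7a2, the inducible nitric oxide synthase Nos2, the arginine-recycling enzymes Ass1 and Asl, and the polyamine enzymes Odc1 and Srm. Live (7-AAD negative) CD45+ cells were sorted from tumours of mice aged 8 weeks and loaded on the Chromium 3' platform, with 1 library from WT mice, which carried Mettl3 fl/fl with Lyz2 +/+, and 1 from KO mice, in which one Lyz2 allele carried cre. Both genotypes thus held the floxed alleles of Mettl3, the gene of the catalytic subunit of the m6A RNA methyltransferase, and Cre was driven by the locus of Lyz2, which is active in macrophages, monocytes and granulocytes and weakly in some dendritic cells. Per the study, each library pooled several mice, whose variation is therefore not visible in these data. With 1 library per genotype nothing could be tested between genotypes, and every interval given here is a 95% interval for counting error alone.

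Macrophages take up arginine through cationic amino acid transporters and spend it in competing ways. Arginine can be split into ornithine and urea, and ornithine can feed polyamine synthesis through ornithine decarboxylase and then spermidine synthase, whereas inducible nitric oxide synthase turns arginine into nitric oxide and citrulline, which argininosuccinate synthase and lyase can convert back into arginine. Nos2 is a textbook marker of classically activated (M1) mouse macrophages, and activated T cells depend on arginine and on polyamines to proliferate.

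The 6 genes are protein-coding and lie on mouse build GRCm38 (mm10) at chr8:40862396-40922308 (Slc7a2, plus strand), chr11:78920787-78960254 (Nos2, plus strand), chr2:31470207-31520672 (Ass1, plus strand), chr5:130011258-130029247 (Asl, minus strand), chr12:17544794-17551505 (Odc1, plus strand) and chr4:148591503-148594993 (Srm, plus strand). Values are unique molecular identifiers (UMIs, 1 per captured RNA molecule) summed over all cells of a class in a library and given as CPM (counts scaled to 1000000 UMIs of that class), or as the share of cells with at least 1 UMI. A log2 ratio is always the library labelled KO over the library labelled WT, so a value above 0 is higher in the library labelled KO. Ranges in brackets are the 95% intervals. Orders of classes cover the 8 classes with at least 100 cells in each library. They go by the mean of the libraries, and neighbours in that order are said to overlap where the ranges spanned by their libraries overlap.

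After filtering, 5405 cells of the library labelled WT (median 4137 UMIs) and 7625 of the library labelled KO (median 3563 UMIs) were kept. Among all deposited barcodes, before filtering, 13 barcode sequences occurred in both libraries. Mettl3 itself was not lower in the library labelled KO, at 9.85 and 10.95 CPM in macrophage-like cells, log2 0.15 (-0.15 to 0.46). Counting from the 3' end also counts a transcript that lacks an internal exon, so this level does not check the deletion, and the libraries are named by their labels throughout. Lyz2, which loses 1 functional allele to Cre, was lower in the library labelled KO, at 6038 and 2669.8 CPM in macrophage-like cells. Cells were put in classes by marker genes. Macrophage-like cells numbered 1631 and 2135 (medians 8347 and 6072 UMIs) in the libraries labelled WT and KO, monocyte-like cells 795 and 2129 (4100 and 3338), granulocyte-like cells 593 and 263 (1316 and 1039) and T-like cells 623 and 776 (2234 and 1765). Of the macrophage-like cells, 128 (7.85%) and 215 (10.1%) lay near the cut, and 172 and 369 cells between the macrophage-like and monocyte-like classes were assigned to neither. Melanoma-like cells, which a CD45+ sort should leave out, numbered 152 and 245, with the deepest barcodes (medians 44132 and 33610 UMIs).

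Among these 8 classes, Slc7a2 had its highest level in macrophage-like cells, Nos2 in granulocyte-like cells, Ass1 and Asl in mature DC-like cells (dendritic cells with markers of maturation such as Ccr7 and Fscn1), Odc1 in T-like cells, and Srm in melanoma-like and T-like cells. Between the libraries, Slc7a2 in macrophage-like cells, Slc7a2, Nos2 and Ass1 in monocyte-like cells, Odc1 in granulocyte-like cells and Ass1 in melanoma-like cells were over 1.5-fold higher in the library labelled KO, whereas Nos2 in granulocyte-like cells and Srm in melanoma-like cells were over 1.5-fold lower.

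**Figure D1:**
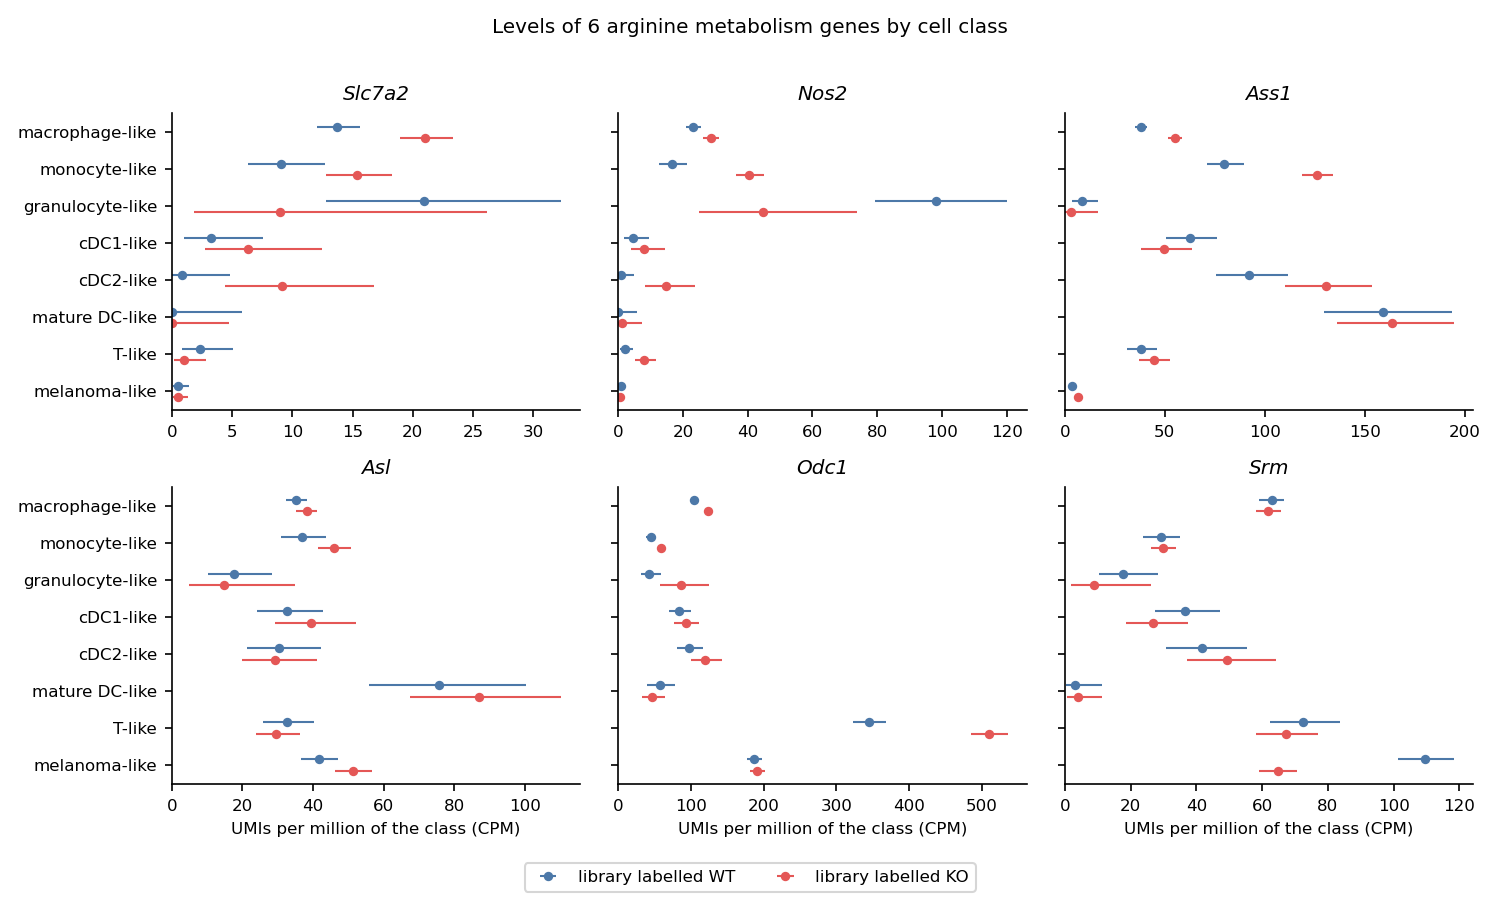
Levels of the 6 genes (horizontal axes, CPM of the class, linear from 0, a scale of its own for each gene) in 8 cell classes (vertical axes) in the library labelled WT (blue) and the library labelled KO (red), with points for the summed level and bars for exact 95% Poisson intervals. Nos2 stands at 98.2 and 44.8 CPM in granulocyte-like cells and Odc1 at 345 and 510 CPM in T-like cells.

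Slc7a2 encodes CAT2, the cationic amino acid transporter that activated macrophages induce to import arginine. Its level in macrophage-like cells was 13.8 CPM (12.1 to 15.6) in the library labelled WT and 21.0 CPM (18.9 to 23.3) in the library labelled KO, from 236 and 359 UMIs, a log2 ratio of 0.61 (0.37 to 0.86). The intervals did not overlap, and the share of positive cells was 7.30% and 9.65%, or 1.27% and 2.52% once each cell was thinned to 1000 UMIs. Monocyte-like cells held 9.08 and 15.4 CPM, log2 0.76 (0.20 to 1.35). In granulocyte-like cells the 20 and 3 UMIs gave 20.9 and 8.95 CPM, but 1 cell held 14 of the 20 in the library labelled WT and 1 cell all 3 in the library labelled KO. Without the highest cell of each library granulocyte-like cells were at 6.32 CPM in the library labelled WT and at 0 UMIs, which allows up to 3, in the library labelled KO, beside 7.77 and 14.7 CPM in monocyte-like cells treated alike. Its UMIs lay mainly in myeloid classes. Conventional dendritic cell classes held 3.25 and 6.33 CPM (cDC1-like) and 0.869 and 9.14 CPM (cDC2-like), T-like cells 2.33 and 0.987 CPM and melanoma-like cells 0.496 and 0.522 CPM. With all cells counted, neighbours overlapped throughout the order macrophage-like, granulocyte-like, monocyte-like, cDC2-like and cDC1-like. Mature DC-like cells held none in either library, which allows up to 4.74 and 3.89 CPM.

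Nos2, which makes nitric oxide from arginine, went in opposite directions in different myeloid classes. Granulocyte-like cells held 98.2 CPM (79.3 to 120.2) in the library labelled WT and 44.8 CPM (25.1 to 73.8) in the library labelled KO, from 94 and 15 UMIs, log2 -1.13 (-2.03 to -0.34). Shares of positive cells were 9.44% and 4.94%, and without the highest cell of each library the log2 ratio was -1.23 (-2.19 to -0.38). At 1000 UMIs per cell, 32 of 456 and 7 of 140 cells were positive, shares whose intervals overlapped. Markers of macrophages in this gate had a summed level of 1578 and 1110 CPM, with a UMI in 61.6% and 44.9% of cells, and their part in this difference was not tested. Within the gate, the 56 and 13 Nos2-positive cells had a median of 4.69 and 0 macrophage-marker UMIs per 10000, beside 7.23 and 0 in the 537 and 250 Nos2-negative cells.

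In monocyte-like cells Nos2 was instead higher in the library labelled KO, at 16.6 CPM (12.7 to 21.2) against 40.5 CPM (36.3 to 45.1) there, from 62 and 337 UMIs, log2 1.29 (0.90 to 1.70). Positive shares were 2.52% and 5.64%. Macrophage-like cells differed little, at 23.2 and 28.5 CPM from 398 and 487 UMIs, log2 0.30 (0.10 to 0.49), with 7.05% and 7.78% positive and 2.07% and 2.83% at 1000 UMIs. The direction in macrophage-like cells depended on the weight of their sub-clusters, since giving each sub-cluster equal weight turned the log2 ratio to -0.42. cDC2-like cells had 1 and 16 UMIs, log2 4.07 (1.39 to 9.46). T-like cells had 5 and 24 UMIs, but 20 of the 24 in the library labelled KO lay in 1 cell, and without the highest cells the levels were 1.16 and 1.32 CPM, log2 0.18 (-2.38 to 2.95). T-like shares were 0.642% and 0.515%, at median depths of 2234 and 1765 UMIs. At 1000 UMIs they were 0.345% and 0.152%, beside 0.725% and 0.962% in melanoma-like and 1.32% and 2.73% in monocyte-like cells. In the library labelled WT the T-like and monocyte-like intervals at that depth, 0.0419 to 1.24 and 0.635 to 2.42, overlapped.

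Ass1, argininosuccinate synthase, takes the first step from citrulline back to arginine. Its highest level was in mature DC-like cells, at 159 and 163 CPM, with 38.5% and 38.1% of cells positive. cDC2-like cells at 92.1 and 131 CPM and monocyte-like cells at 79.9 and 126 CPM overlapped each other below them. Ass1 was higher in the library labelled KO in monocyte-like cells, log2 0.66 (0.48 to 0.85) from 299 and 1052 UMIs, and in macrophage-like cells, at 37.9 CPM (35.1 to 41.0) and 55.1 CPM (51.7 to 58.8), log2 0.54 (0.39 to 0.69). Shares of positive macrophage-like cells were 20.5% and 23.6%, or 63 of 1500 and 130 of 1945 cells at 1000 UMIs. Within T-like cells, at 38.0 and 44.4 CPM, those positive for CD4 markers stood at 95.8 and 84.8 CPM. Melanoma-like cells were among the lowest, at 3.80 and 6.39 CPM, whereas granulocyte-like cells held 8.36 and 2.98 CPM.

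Asl, argininosuccinate lyase, completes that recycling and stood at similar levels in 6 of the 8 classes. Mature DC-like cells stood apart at 75.8 and 86.9 CPM and granulocyte-like cells at the bottom at 17.8 and 14.9 CPM. Between them, melanoma-like (41.7 and 51.3 CPM), monocyte-like (36.9 and 45.9 CPM), macrophage-like (35.3 and 38.2 CPM), cDC1-like (32.5 and 39.6 CPM), T-like (32.6 and 29.6 CPM) and cDC2-like cells (30.4 and 29.2 CPM) formed a chain in which neighbours overlapped. Log2 ratios were 0.12 (-0.05 to 0.28) in macrophage-like and 0.32 (0.03 to 0.61) in monocyte-like cells. Melanoma-like cells thus had Asl in 60.5% and 64.1% of cells but Ass1 in only 9.87% and 15.9%.

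Odc1, ornithine decarboxylase, the first and limiting enzyme of polyamine synthesis, was highest in T-like cells, at 345 CPM (323 to 368) and 510.2 CPM (485 to 536), from 889 and 1550 UMIs, log2 0.56 (0.44 to 0.69). Positive shares there were 40.6% and 39.4%, or 21.2% and 26.1% at 1000 UMIs. Among T-like cells, CD4 T-like cells held 716 and 786 CPM, log2 0.13 (-0.13 to 0.41), and CD8 T-like cells 288 and 430.5 CPM, log2 0.58 (0.42 to 0.74). The CD4 T-like cells were thus the higher in both libraries. Melanoma-like cells followed at 187 and 191 CPM. Macrophage-like cells held 104 and 124 CPM, log2 0.25 (0.16 to 0.34), and monocyte-like cells 44.6 and 58.4 CPM, log2 0.39 (0.13 to 0.65). Granulocyte-like cells held 42.8 and 86.6 CPM, from 41 and 29 UMIs, log2 1.02 (0.28 to 1.74), which was 0.87 (0.07 to 1.64) without the highest cell of each library.

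Srm, spermidine synthase, acts after Odc1 and had another order. Melanoma-like cells at 109.6 and 64.7 CPM and T-like cells at 72.5 and 67.1 CPM overlapped at the top of the 8 classes, and macrophage-like cells came next at 62.9 and 61.9 CPM. Of the classes with fewer cells, plasma-like cells held 91.7 and 104.7 CPM, from 15 and 29 UMIs, and NK-like cells 104.1 and 62.4 CPM, from 17 and 22 UMIs. Mature DC-like cells, the highest class for Ass1 and Asl, were the lowest for Srm at 3.16 and 3.89 CPM. Srm did not differ detectably between the libraries in macrophage-like cells, log2 -0.02 (-0.15 to 0.10), whereas melanoma-like cells had less in the library labelled KO, log2 -0.76 (-0.93 to -0.59).

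Read together, 5 of the 6 genes were above 0 on the log2 scale in macrophage-like cells, as were 53.1% of all tested genes, with a median of 0.27 beside 0.01 over the 10830 genes with at least 50 UMIs over both libraries. Past 1.5-fold was 1 gene, Slc7a2, higher in the library labelled KO, where 2.52% of all tested genes were that much higher and 2.02% that much lower. Its log2 ratio fell short of that fold, at 0.38 with equal weight for each sub-cluster, 0.46 without sub-cluster 2 (described with the sub-clusters) and 0.57 with monocyte-like cells added. In monocyte-like cells all 6 were above 0 beside 48.4% of all tested genes (median 0.53 beside -0.01 over 8957 genes), and 3, Slc7a2, Nos2 and Ass1, were past 1.5-fold higher beside 4.14% of all genes, with none past it lower beside 2.65%. In granulocyte-like cells only Nos2 and Odc1 had enough UMIs. Odc1 was past the fold higher and Nos2 past it lower, beside 9.25% and 6.8% of 2940 genes. In T-like cells none of the 4 genes with enough UMIs (Ass1, Asl, Odc1 and Srm) passed the fold, beside 3.15% of 8135 genes higher and 2.54% lower. In melanoma-like cells Ass1 (log2 0.75, from 23 and 49 UMIs) was past the fold higher and Srm past it lower, beside 4.69% and 3.41% of 10057 genes.

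**Figure D2:**
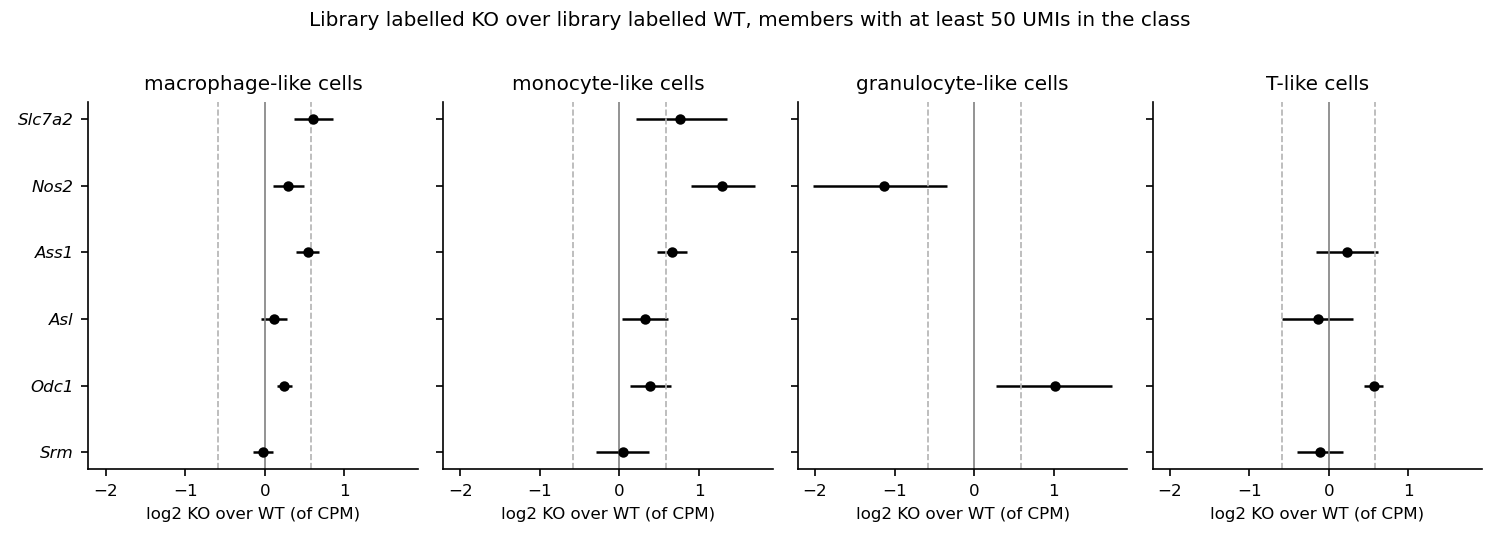
Log2 ratio (horizontal axes, library labelled KO over library labelled WT, of CPM) for the members with at least 50 UMIs over both libraries in macrophage-like, monocyte-like, granulocyte-like and T-like cells, with exact conditional 95% intervals and dashed lines at 1.5-fold. Nos2 lies at 1.29 in monocyte-like cells and at -1.13 in granulocyte-like cells, and Slc7a2 at 0.61 in macrophage-like cells.

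The rest of the pathway and its companions were read from 9 lists of 91 genes. In macrophage-like cells, where 2.52% of all tested genes were past 1.5-fold higher and 2.02% past it lower, none of the 6 tested transport genes passed it, among them Slc7a1 (CAT1, the constitutive arginine transporter) at 17.5 and 24.6 CPM and Slc7a8 at 157 and 189 CPM. None of 6 genes of nitric oxide synthesis and its cofactor did, with Gch1, which limits synthesis of the cofactor tetrahydrobiopterin, at 36.8 and 46.2 CPM. Of the polyamine genes none of 12 was past the fold, with Sat1 (polyamine acetylation) at 428 and 464 CPM and Oaz1 (the antizyme that sends ornithine decarboxylase to degradation) at 971 and 909 CPM. Of the 8 tested genes for proline, glutamate and creatine, 1 was past the fold, Gamt, the last enzyme of creatine synthesis, which was lower at 26.0 and 17.2 CPM, log2 -0.60 (-0.81 to -0.38). Otc, Cps1 and Nags, the urea cycle genes of the liver, had 0 UMIs in macrophage-like cells of both libraries, which allows up to 0.175 and 0.176 CPM.

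Among transcription factors and receptors of myeloid activation, 14 of 16 were above 0, beside 53.1% of all tested genes in this class, and none passed 1.5-fold, for example Cebpb, a factor of myeloid and inflammatory genes, at 539.7 and 639 CPM and Hif1a at 129 and 148 CPM. All 7 tested companions of M1-type activation were above 0 and none past the fold, with Il1b at 75.3 and 107 CPM, log2 0.50 (0.40 to 0.61). Of 10 companions of M2-type activation, 3 were past the fold higher, beside 2.52% of all tested genes: Retnla at 7.69 and 20.8 CPM, Chil3 at 39.5 and 59.3 CPM and Ccl24 at 53.0 and 81.8 CPM. Together with Gamt these were the 4 pathway genes past the fold in this class, a count that was 1 with a stricter marker gate and 1 at 1000 UMIs per cell. Mrc1, the mannose receptor, went the other way at 603 and 524 CPM. Of 13 hypoxia and glycolysis genes, 12 were above 0 and none past the fold. Chil3 is also a marker of the monocyte gate, and the monocyte markers in macrophage-like cells had medians of 8.23 and 11.4 per 10000 UMIs beside 132 and 119 for macrophage markers. Their part in these values was not tested.

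In monocyte-like cells 6 of the 13 hypoxia and glycolysis genes were past 1.5-fold higher in the library labelled KO, beside 4.14% of all tested genes, including Pgk1 at 435 and 686 CPM, Bnip3 at 83.1 and 136 CPM and Egln3 at 34.2 and 57.1 CPM. Of 7 M1-type companions 3 were past it higher, the interferon-induced chemokines Cxcl9 (250.3 and 411 CPM) and Cxcl10 (332 and 708 CPM) and Cd40 (46.0 and 80.3 CPM). Of 8 M2-type companions 2 were past it lower, beside 2.65% of all tested genes, Retnla (40.9 and 16.2 CPM) and Ccl22 (6.68 and 3.36 CPM). Gamt was lower here too, at 22.4 and 11.2 CPM. Retnla, Chil3 and Ccl24, higher in the library labelled KO in macrophage-like cells, were all lower there in monocyte-like cells, with log2 -0.20 (-0.27 to -0.13) for Chil3 and -0.29 (-0.40 to -0.19) for Ccl24, both short of the fold.

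The myeloid classes were then divided by clustering that left out the genes of the set and the pathway lists, so that these genes did not draw the borders. Macrophage-like sub-cluster 2, led by Mmp12, Cxcl3, Il7r and genes of the hypoxia response such as Hilpda, Vegfa, Ndrg1 and Ero1l, took 270 cells (16.6% of the class) in the library labelled WT and 589 (27.6%) in the library labelled KO. Of these leaders Hilpda, Vegfa and Ero1l belong to the lists left out of the clustering. Nos2 stood at 128 CPM (114 to 144) and 86.0 CPM (77.1 to 95.6) there, beside 11.4 and 7.05 CPM in sub-cluster 0 and 3.80 and 5.51 CPM in sub-cluster 1, Slc7a2 at 40.0 and 46.0 CPM, and Odc1 at 189 and 162 CPM. Srm alone was lower than in the large sub-clusters 0 and 1, at 28.2 and 30.4 CPM beside 78.9 and 82.1 CPM in sub-cluster 0. The summed levels of Slc7a2, Nos2 and Odc1 were thus all higher in sub-cluster 2 than in sub-clusters 0 and 1, and Asl (41.8 and 42.0 CPM) was level with the others.

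Within sub-cluster 2 the libraries were closer than over the class for Slc7a2, log2 0.20 (-0.17 to 0.58). Nos2 was lower there in the library labelled KO, log2 -0.57 (-0.80 to -0.34), with 28.9% and 20.4% of cells positive. The summed level of Odc1 was lower in that library too, log2 -0.22 (-0.40 to -0.04), from 429 and 644 UMIs. The highest cell held 37 of these UMIs in the library labelled WT and 21 in the library labelled KO. The ratio without these cells was not tested. Shares of Odc1-positive cells were not lower in the library labelled KO, at 44.4% (38.4 to 50.6) and 48.6% (44.5 to 52.7), with intervals that overlapped. Ass1 was higher in the library labelled KO, at 66.0 and 105 CPM, log2 0.67 (0.40 to 0.95). Over the whole class without sub-cluster 2, a setting chosen after the data were seen, the log2 ratio of Nos2 was 0.62. How far the share of sub-cluster 2 sets the class-wide ratios was not tested further.

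Other sub-clusters differed in their own ways. Sub-cluster 0, led by Ch25h, Slc40a1 and Spp1, held Slc7a2 at 8.91 and 20.2 CPM, log2 1.18 (0.69 to 1.68), and little Nos2 at 11.4 and 7.05 CPM. Its Ass1, at 24.8 and 21.3 CPM, had a log2 ratio of -0.21 (-0.58 to 0.15), and that of sub-cluster 3 was 0.21 (-0.20 to 0.63), both with intervals that included 0. Sub-cluster 1, led by Ciita, Ccr2 and Napsa, held Ass1 at 65.1 and 87.5 CPM, log2 0.43 (0.18 to 0.68), and Slc7a2 at 10.03 and 5.51 CPM. Sub-cluster 3, led by the cell-cycle genes Top2a and Mki67, held Nos2 at 4.36 and 22.7 CPM, log2 2.38 (1.67 to 3.16), and Srm at 63.0 and 72.9 CPM. Of its 89 Nos2 UMIs in the library labelled KO, 23 lay in 1 cell, and the shares of positive cells, 4.42% (2.23 to 7.77) and 7.34% (4.47 to 11.2), overlapped. Sub-cluster 7, led by Lyve1, Saa3 and Cd5l, had 57 cells in each library and no Slc7a2 UMI in either.

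Monocyte-like cells repeated the split. Sub-cluster 3, led by Inhba, Il7r, Mmp13, Vegfa and Hilpda, took 71 cells (8.93%) and 419 cells (19.7%) and held Nos2 at 149.8 and 142 CPM, log2 -0.07 (-0.47 to 0.35), and Slc7a2 at 44.2 and 44.0 CPM. Sub-cluster 1, led by Hp and Ace, held Nos2 at 0 (which allows up to 2.61 CPM) and 1.27 CPM. Sub-cluster 2, led by Cxcl10 and Gbp5, held Ass1 at 91.7 and 97.3 CPM and Nos2 at 2.08 and 9.73 CPM, from 1 and 17 UMIs, log2 2.22 (-0.45 to 7.61), an interval that included 0. In sub-cluster 0, led by C1qa, Mrc1 and Cxcl9, Ass1 was higher in the library labelled KO, at 100.1 and 161 CPM, log2 0.69 (0.43 to 0.95), and Nos2 had 0 UMIs (which allows up to 1.76 CPM) and 17 UMIs (5.90 CPM). Nos2, with a log2 ratio of 1.29 over the whole class, thus stood at near-equal levels in sub-cluster 3, whose share of the class differed.

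**Figure D3:**
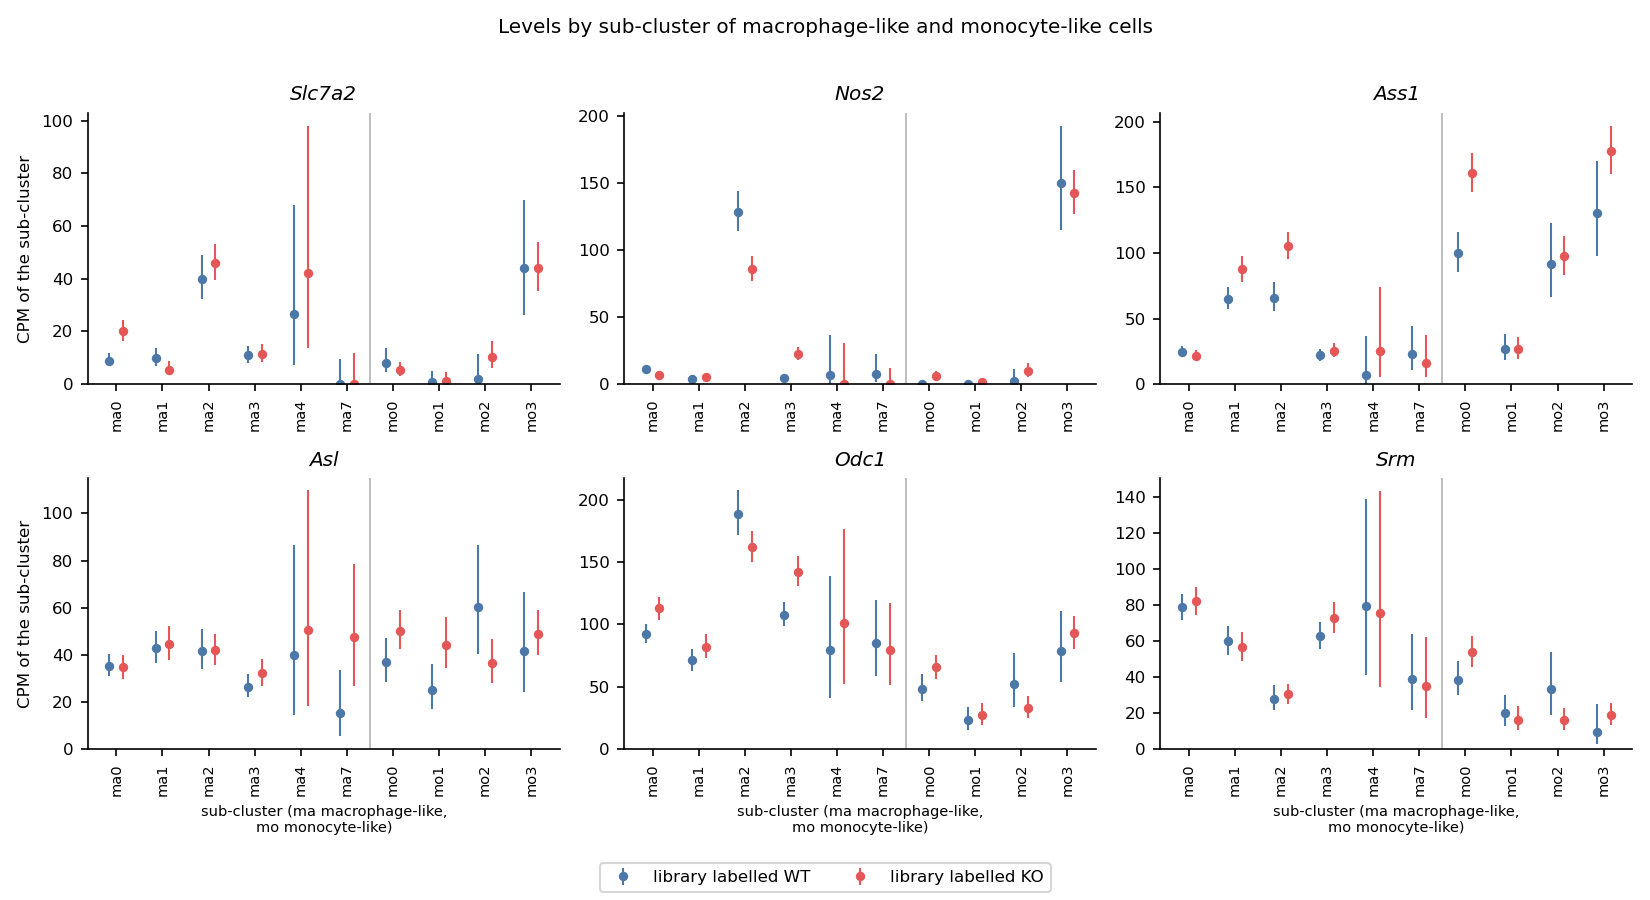
Levels of the 6 genes (vertical axes, CPM of the sub-cluster, linear from 0) in macrophage-like sub-clusters 0 to 4 and 7 (ma) and monocyte-like sub-clusters 0 to 3 (mo) in the libraries labelled WT (blue) and KO (red), with exact 95% Poisson intervals. Nos2 and Slc7a2 reach their highest levels, apart from imprecise values in ma4, in ma2 and mo3, at 128 and 86.0 CPM of Nos2 in ma2.

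Upstream windows were read for members that the RefSeq promoter table of GRCm38.p6 holds, which are 2 of the 6, Ass1 and Odc1, both of which were higher in sub-cluster 2, led by hypoxia-response genes, than over the whole macrophage-like class. Ass1 was also high in sub-cluster 1, which it helped to lead, at 65.1 and 87.5 CPM. Capitals mark ACGTG or GCGTG, the core letters bound by hypoxia-inducible factors, on either strand (the complements read CACGT and CACGC). Both windows lie on the plus strand, at chr2:31470020-31470206 for Ass1 and chr12:17544623-17544793 for Odc1, and end at the last base before the gene.
Ass1: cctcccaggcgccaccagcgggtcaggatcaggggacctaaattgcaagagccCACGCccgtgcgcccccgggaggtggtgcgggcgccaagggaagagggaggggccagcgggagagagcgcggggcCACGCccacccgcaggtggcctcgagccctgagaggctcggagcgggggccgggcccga
Odc1: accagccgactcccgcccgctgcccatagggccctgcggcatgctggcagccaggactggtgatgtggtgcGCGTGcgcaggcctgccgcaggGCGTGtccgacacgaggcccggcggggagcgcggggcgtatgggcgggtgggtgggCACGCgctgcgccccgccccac
The Ass1 window has the core 2 times, 134 and 59 bases before the gene start, and the Odc1 window 3 times, 100, 78 and 22 bases before it. Windows of the same length, taken from the first bases of each promoter entry and not up to a gene start, hold 1 or more matches in 29.4% (187 bases) and 26.7% (171 bases) of 32851 promoters. Numbers of matches per window were not compared. A match describes these letters and is not evidence of binding.

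Nos2-positive macrophage-like cells were then compared with Nos2-negative ones at equal depth, in cells thinned to 4000 UMIs, a comparison chosen after the data were seen. Where the label was WT, 62 cells held a Nos2 UMI and 1120 did not, and where it was KO, 81 held one and 1320 did not. Sub-cluster 2 took 74.2% and 75.3% of the positive cells but 12.1% and 24.0% of the negative ones. The cells with Nos2 thus lay mostly in that sub-cluster in both libraries.

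The other members sorted into those that went with Nos2 and those that did not. Slc7a2 was higher in Nos2-positive cells by log2 2.38 (1.45 to 3.23) and 1.49 (0.62 to 2.26) in the libraries labelled WT and KO, and was found in 14.5% and 13.6% of them against 3.57% and 5.45% of the negative cells. Odc1 was higher too, by log2 0.78 (0.28 to 1.23) and 0.58 (0.18 to 0.97). It was found in 45.2% and 39.5% of the positive cells against 27.4% and 33.5% of the negative cells. The differences in summed level of Slc7a2 and Odc1 were thus larger than counting error in both libraries. For the shares of Odc1 in the library labelled KO, the intervals (28.8 to 51.0 and 30.9 to 36.1) overlapped.

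Srm went the other way, at log2 -1.60 (-3.24 to -0.36) and -1.82 (-3.28 to -0.69), with 6.45% and 7.41% of Nos2-positive cells holding it against 19.4% and 21.1% of the negative ones. Ass1, at log2 0.64 (-0.26 to 1.43) and 0.68 (0.09 to 1.22), was past counting error in the library labelled KO alone, and the difference between the libraries was not tested. Asl, at 0.29 (-0.74 to 1.17) and 0.07 (-0.87 to 0.88), had intervals that included 0. Odc1 and Srm, the enzymes of polyamine synthesis in the set, thus went in opposite directions.

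Of the hypoxia and glycolysis genes all 13 were higher in Nos2-positive cells in both libraries, beside 36.4% of 10403 genes with at least 10 UMIs in the library labelled WT and 40.3% of 10557 in the library labelled KO, and their summed level was 10476 against 4060.5 CPM in the library labelled WT and 9975 against 4458 CPM in the library labelled KO. By log2, Vegfa, the angiogenic growth factor, was higher by 2.82 and 2.81, Egln3, an oxygen sensor, by 3.08 and 2.59, and Slc2a1, the glucose transporter, by 2.34 and 1.98. Genes of the same list were among the leaders of sub-cluster 2, in which most Nos2-positive cells lay.

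M1-type companions went both ways. Of the 7 with at least 10 UMIs, 4 were higher in Nos2-positive cells in each library. Ptgs2 (prostaglandin synthesis) was higher by log2 2.93 and 2.39 and Il1b by 1.37 and 0.79, whereas Cxcl10 was lower in the library labelled WT, at -1.78 (-2.49 to -1.14), and at -0.15 (-0.48 to 0.16) in the library labelled KO. Cxcl9 differed in sign between the libraries, at 0.26 and -0.29, and Tnf, at -0.26 and -0.36, had intervals that included 0. The summed M1-type level was 1496 (1348 to 1656) against 1254 (1222 to 1287) CPM in the library labelled WT, apart beyond counting error, and 1503 (1373 to 1643) against 1484 (1452 to 1518) CPM in the library labelled KO, where the intervals overlapped. In the library labelled WT, Cxcl9 alone held 213 of the 371 summed UMIs of positive cells and 3206 of the 5619 of negative cells. It was found there in 38.7% of positive and 45.9% of negative cells.

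M2-type companions were lower in Nos2-positive cells as a sum, at 915 against 1287 CPM in the library labelled WT and 778 against 1201 CPM in the library labelled KO. Mrc1 and Trem2, also markers of the macrophage gate, held 2810 and 1718 of the 5765 UMIs of negative cells in the library labelled WT. In the library labelled KO they held 2758 and 1788 of 6339. Chil3, Ccl22, Il10 and Clec10a had intervals that included 0 in both libraries. Mrc1 stood at log2 -0.65 and -0.54 and Ccl24 at -1.35 and -1.12. Of the factors and receptors, Cebpb was higher by log2 1.43 and 0.95, Klf4 by 1.08 and 0.74 and Hif1a by 0.63 and 0.95. Ifngr1, a chain of the interferon gamma receptor, was lower, at log2 -0.95 and -0.65.

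**Figure D4:**
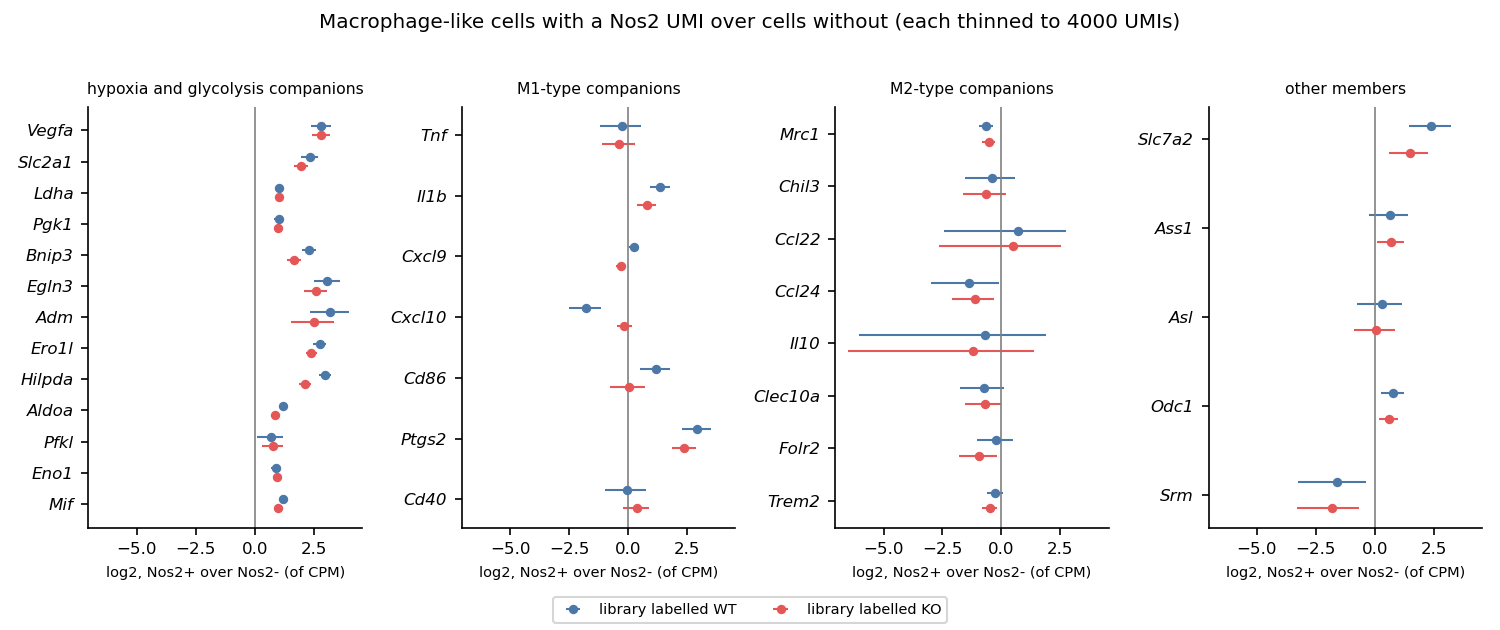
Log2 ratio of CPM (horizontal axes) between macrophage-like cells with and without a Nos2 UMI, each cell thinned to 4000 UMIs, for hypoxia and glycolysis genes, M1-type and M2-type companions and the other members, in the libraries labelled WT (blue) and KO (red) with exact 95% intervals. All 13 hypoxia and glycolysis genes lie to the right of 0 in both libraries, whereas M1-type genes lie on both sides and Srm lies to the left.

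Across 8 classes in 2 libraries (16 points, which share library, depth and classes), the genes most like Nos2 by Pearson's r of log2(CPM + 1) among 5572 genes were Clec4d (r = 0.95), Acod1 (0.95), Cebpb (0.93), Clec4e (0.93) and Cxcl3 (0.92). These values describe which classes the genes share.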

How the data were processed

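The authors aligned reads to mm10 with Cell Ranger (matrix header 4.0.0) and deposited raw UMI counts per gene and barcode for 14341 barcodes of 2 libraries, 45963969 UMIs in the library labelled WT and 54052317 in the library labelled KO. Following the study's methods, barcodes were kept from 200 detected genes upwards and up to 10% mitochondrial UMIs. The study removed doublets by a method not given in the sources used here. Here the 256 and 532 cells with the highest Scrublet scores (0.8% for each 1000 cells) were removed as doublets.

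Each cell was scored on 16 marker lists and assigned to the leading class. The gate thresholds were set after the data were seen. Cells with markers of several lineages (370 and 327) or of no class (525 and 871) were set aside. The UMIs of a class were summed within each library and expressed as CPM with exact Poisson intervals, shares with Clopper-Pearson intervals, and log2 ratios with the exact conditional binomial interval, all at 95%. A count of 0 was given the limit of 3 counts. The intervals cover counting error only. A ratio compares these 2 libraries, not the genotypes. A gene counted as past the fold at 1.5-fold with at least 50 UMIs over both libraries.

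Sub-clusters came from Leiden clustering of each class at resolution 0.5 without the genes of the set and the pathway lists. Genes named were the 6 members in every class, the 5 genes most correlated with Nos2, and the pathway genes past the fold in macrophage-like cells with an interval that leaves out 0. Other genes are given as examples of their lists and were chosen after their values were seen. 2 further genes of the set are not reported here. The members, lists and tests were chosen with earlier results of these data known. The computations used Python 3.11.15, numpy 2.4.6, scipy 1.17.1, pandas 2.3.3, scanpy 1.11.5, leidenalg 0.10.2 and matplotlib 3.10.9, and were tested on simulated data. The depositors' matrix pools both libraries, which were told apart by the deposited table of library names.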

Additional observations from a re-analysis of the deposited data

Results flagged for a closer look

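The direction of the ratio between the libraries differed between cell classes for Nos2, and these differences between classes were not tested, since each genotype has 1 library. Nos2 was above 0 in macrophage-like (0.30), monocyte-like (1.29), cDC2-like (4.07, from 1 and 16 UMIs) and T-like cells (2.03, with 20 of 24 UMIs of the library labelled KO in 1 cell) and below 0 in granulocyte-like cells (-1.13).

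Nos2 was also found outside the classes compared. Cells with markers of several lineages held 21.0 and 19.97 CPM and cells assigned to no class 34.4 and 53.6 CPM in the libraries labelled WT and KO, above the 1.94 and 7.90 CPM of T-like cells.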

How the results depend on the processing

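No paired analysis was possible because there is 1 library per genotype. In macrophage-like cells, the log2 ratio of Nos2 (0.30) became 0.70 with classes from joint Leiden clusters, 0.63 at 1000 UMIs per cell, 0.56 with monocyte-like cells added and 0.62 without sub-cluster 2, and turned to -0.42 with equal weight for each sub-cluster. Slc7a2 (0.61) became 0.90 with Leiden classes and 1.08 at 1000 UMIs, and lost its 1.5-fold call at 0.57 with monocyte-like cells added, 0.46 without sub-cluster 2 and 0.38 with equal weight. Odc1 (0.25) became 0.35 with Leiden classes, 0.41 at 1000 UMIs, 0.45 as a mean over cells, 0.13 with monocyte-like cells added and 0.12 with equal weight. The 4 pathway genes past the fold were 7 with Leiden classes and 1 each with a stricter gate, at 1000 UMIs and at 2-fold. The cause of these shifts was not tested. Of the members, 5 or 6 were above 0 under 11 settings. The setting without sub-cluster 2 was chosen after the data were seen. Depth limits Slc7a2 and Nos2, which had few UMIs in most classes, and granulocyte-like cells, with medians of 1316 and 1039 UMIs.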

Other observations

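Odc1 in T-like cells was looked at further after its values were seen. Where Foxp3, the regulatory T cell factor, was detected, CD4 T-like cells held 726 and 1081 CPM of Odc1 in the libraries labelled WT and KO, from 12 and 14 cells with medians of 3307 and 5752 UMIs, and where it was not, 711 and 679 CPM, from cells with medians of 1763 and 1781 UMIs. CD8 T-like cells with a UMI of the proliferation gene Mki67 held 359 and 468 CPM (81 and 99 cells), against 218 and 371 CPM without one (263 and 263 cells). Srm followed the same order in CD8 T-like cells, at 127 and 98.8 CPM with Mki67 against 52.6 and 44.6 CPM without. The median depth was 9464 and 9472 UMIs in CD8 T-like cells with Mki67 and 2388 and 1811 without, the cells were not thinned, and the part of depth in these values was not tested.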
